A study of Homo sapiens with 4 samples.

Results

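The genes described are 10 regulators of epithelial and mesenchymal identity: the transcription factors ZEB1, ZEB2, SNAI1, SNAI2, TWIST1, GRHL1, GRHL2 and OVOL1, and the splicing factors ESRP1 and ESRP2. They were chosen by symbol, and each of the 10 matched 1 gene ID among 60614 in the count tables. RNA was sequenced from DU145, an established human prostate cancer cell line, in a comparison of wild-type cells with cells of the genotype SPOP-F133V. SPOP recruits substrates to a ubiquitin ligase built on CUL3. Each genotype had 2 libraries, and all cells grew in the same serum-containing medium with no treatment named in the labels. The sources used here do not give how the F133V line was made (clone, pool or overexpression), so the mutation and the making of each line cannot be told apart. No label ties replicates to separate cultures. The p-values therefore reflect only how far these samples spread, which may be technical. Paired values are given in the order replicate 1, replicate 2.

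In epithelial-mesenchymal transition (EMT), epithelial cells lose junctions and polarity and gain a motile, mesenchymal state. The zinc-finger factors of the ZEB and SNAI families and the basic helix-loop-helix factor TWIST1 drive it. ZEB and SNAI proteins bind the E-box CACCTG in promoters of junction genes such as CDH1, the gene of E-cadherin, and repress them. Grainyhead-like (GRHL) and OVOL factors act the other way, holding ZEB genes down and junction genes up, and ESRP proteins direct the epithelial splice forms of many transcripts. MicroRNAs of the miR-200 family repress ZEB1 and ZEB2, and ZEB proteins repress the miR-200 genes in turn.

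The EMT drivers did not move together in F133V cells. ZEB1 and SNAI2 mRNA stood at 0.465 and 0.506 of their wild-type levels before correction for GC content, SNAI1 stood at 1.49 times its level, and TWIST1 had no reads in any library. After the correction ZEB1 and SNAI2 fell by less, SNAI1 rose by 0.28 in place of 0.57 on the log2 scale, and the scarce ZEB2, which fell before it, did not pass. Among the epithelial regulators, ESRP1 and ESRP2 did not pass the test before the correction and passed in opposite directions after it, at 0.34 and -0.33. GRHL1 fell before it and not after it, and GRHL2 and OVOL1 were near 0.

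The libraries held 35173245 to 39642063 reads in genes. SPOP stood at 1171 and 1151 CPM in F133V replicates 1 and 2 and at 844 and 906 CPM in wild-type replicates 1 and 2, where CPM is the read count scaled to library size with TMM factors. Gene counts do not separate mutant from wild-type SPOP transcripts, so they do not check the labels. Epithelial keratins and junction genes marked the cells: KRT8, KRT18, KRT19, EPCAM and CDH1 lay between 81.1 and 1003 CPM in every library. The prostate antigen genes KLK3 and KLK2 had no reads. Of 16 markers of fibroblasts, endothelium and blood cells, 3 had no read in any library and 6 had at most 3 reads in each. Their summed level was 9.04 and 9.69 CPM in F133V and 7.34 and 7.29 CPM in wild-type libraries, mostly COL1A1. Of the 4 of these markers that could be tested 3 were called higher (GC-adjusted 2). Of 6 tested prostate epithelial markers 5 were called higher and 1 lower in both fits. Over all tested genes 27.2% were higher and 27.6% lower (GC-adjusted 27.6% and 24.6%). Leaving out 1 library changed which genes could be tested, so that prostate markers beyond these 6 could enter. The number of prostate markers called higher then rose or fell, and calls among those 4 other markers were lost in some fits. The GC-adjusted call for KRT18 (0.075) was lost on leaving out any library but F133V replicate 2. The part of these differences in the results was not tested.

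The genotype difference of a gene followed the GC content of its transcripts, which bears on every value given here. Across 10 equal bins of GC content, the median log2 difference between genotypes ran from -0.68 in the lowest bin to 0.29 in the highest. The same trend separated F133V replicate 2 from replicate 1, from -0.19 to 0.16, and was within 0.023 of 0 in all bins between the wild-type replicates. Each fold change is therefore given from 2 fits, without and with an adjustment for GC content and transcript length (called GC-adjusted). Of 17539 genes tested, 54.8% differed between genotypes before adjustment (edgeR quasi-likelihood test, Benjamini-Hochberg adjusted p under 0.05). Those higher in F133V cells made up 27.2% of the genes tested and those lower 27.6%. Upper-quartile scaling moved the 4763 higher and 4841 lower genes to 6462 and 3831. After GC adjustment 52.2% of 17299 genes differed, 27.6% higher and 24.6% lower.

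Of the 10 regulators, 7 had enough reads to be tested. Before adjustment 1 of the 7 was higher, 4 were lower and 2 did not pass, with a median log2 fold change of -0.30, beside 0.022 over all tested genes. After adjustment 2 were higher, 3 lower and 2 did not pass, and the median was -0.33, beside 0.017. The 5 of 7 called in each fit stand beside the 54.8% and 52.2% of all genes called. Genotypes did not overlap in 78% of tested genes, and in 5 of the 7 regulators.

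**Figure D1:**
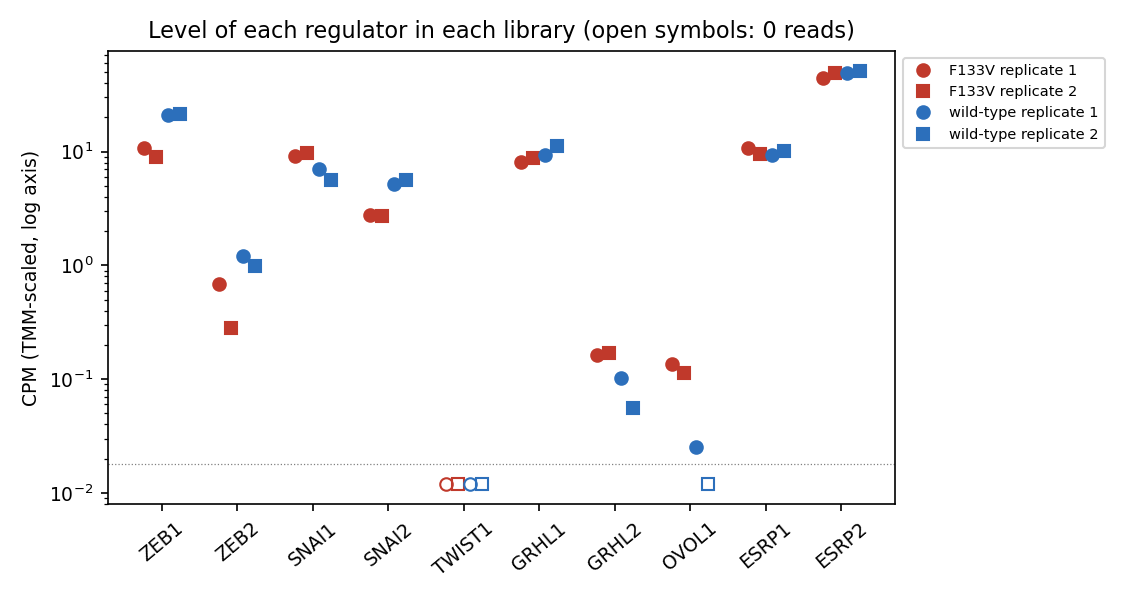
Level of each of the 10 regulators in the 4 libraries, in CPM on a log axis. Filled symbols are single libraries and open symbols under the dotted line mark libraries with 0 reads. The wild-type points of ZEB1, ZEB2, SNAI2 and GRHL1 lie above both F133V points, those of SNAI1 lie below, and those of ESRP1 and ESRP2 overlap.

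ZEB1 (ENSG00000148516.22, chromosome 10, 31318495 to 31529814 on the plus strand, gene bounds from GENCODE 29, GRCh38) encodes a zinc-finger and homeodomain repressor of epithelial genes. It had 397 and 319 F133V reads against 827 and 771 wild-type reads, or 10.8 and 9.04 against 21.1 and 21.6 CPM. Both F133V libraries were low and the 2 wild-type libraries lay within 1 CPM of each other. ZEB1 fell from 21.3 ± 0.383 CPM in wild-type to 9.93 ± 1.26 CPM in F133V cells (SD, n = 2 each), a log2 fold change of -1.10 ± 0.095 (SE, edgeR quasi-likelihood test, BH-adjusted p = 8.45e-09). The GC-adjusted change was -0.50 ± 0.072 (edgeR BH-adjusted p = 2.48e-07). The longest ZEB1 transcript has 38.5% GC, and genes of that GC bin had a median difference of -0.51. Within the bin 3.06% of genes fell further than ZEB1. The antisense gene ZEB1-AS1, which overlaps the start of ZEB1, had 8.20 and 7.91 CPM in F133V and 7.26 and 7.54 CPM in wild-type libraries, a log2 fold change of 0.12 ± 0.10 that did not pass (edgeR BH-adjusted p = 0.335). GC-adjusted, ZEB1-AS1 rose by 0.32 (edgeR BH-adjusted p = 0.00418). Strand use in counting is not given, so reads where the pair overlap cannot be assigned. In bulk RNA, fewer cells expressing a gene and less RNA per cell cannot be told apart.

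ZEB2 (ENSG00000169554.22, chromosome 2, 144364364 to 144524583 on the minus strand) is the paralog of ZEB1 and binds the same E-boxes. It was scarce, with 25 and 10 F133V reads against 47 and 35 wild-type reads. The levels were 0.681 and 0.283 CPM in F133V and 1.20 and 0.981 CPM in wild-type libraries, and the F133V replicates differed more from each other than the wild-type ones. ZEB2 fell before adjustment with a log2 fold change of -1.17 ± 0.317 (SE, edgeR BH-adjusted p = 0.00399). The GC-adjusted value, -0.54 ± 0.306, did not pass (edgeR BH-adjusted p = 0.136). Without F133V replicate 2 the unadjusted value was -0.68 and missed the threshold (edgeR BH-adjusted p = 0.0712). The DESeq2 test of the same counts gave -1.18 with an adjusted p of 0.0501. ZEB2 was lower in both F133V libraries and passed the test in some fits only.

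SNAI2 (ENSG00000019549.13, chromosome 8, 48917604 to 48921740 on the minus strand), the gene of Slug, had 101 and 95 F133V reads against 202 and 200 wild-type reads. The levels were 2.75 and 2.69 CPM in F133V and 5.15 and 5.61 CPM in wild-type libraries. The genotypes did not overlap, and replicates were close in both. SNAI2 fell from 5.38 ± 0.325 to 2.72 ± 0.0421 CPM (SD, n = 2 each), a log2 fold change of -0.98 ± 0.136 (SE, edgeR BH-adjusted p = 4.22e-06). GC-adjusted it fell by 0.61 ± 0.133 on the log2 scale (edgeR BH-adjusted p = 1.80e-04). Genes of the same GC bin as SNAI2, whose longest transcript has 41.4% GC, had a median difference of -0.35.

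SNAI1 (ENSG00000124216.4, chromosome 20, 49982999 to 49988886 on the plus strand), the gene of Snail, went the other way from its paralog. It had 334 and 344 F133V reads against 275 and 202 wild-type reads, or 9.10 and 9.75 against 7.01 and 5.66 CPM. The wild-type pair lay further apart than the F133V pair, and the genotypes did not overlap. SNAI1 rose from 6.33 ± 0.950 to 9.42 ± 0.459 CPM (SD, n = 2 each), a log2 fold change of 0.57 ± 0.115 (SE, edgeR BH-adjusted p = 2.89e-04). The GC-adjusted rise was 0.28 ± 0.099 (edgeR BH-adjusted p = 0.0159). In the GC-adjusted fit the call for SNAI1 was lost on leaving out wild-type replicate 2 (0.15, edgeR BH-adjusted p = 0.327) or F133V replicate 1 (0.25, edgeR BH-adjusted p = 0.0534). Its transcript has 58.2% GC, and genes of that bin had a median difference of 0.23, with 87.2% of them below SNAI1.

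Ratios of reads between members of 1 library need no scaling between libraries. SNAI1 had 3.31 and 3.62 reads for each SNAI2 read in F133V against 1.36 and 1.01 in wild-type libraries, a 2.92-fold difference between genotype means. These transcripts differ in GC content, at 58.2% and 41.4%. ZEB1 and ESRP1, at 38.5% and 42.8% GC, are closer. ZEB1 had 1.02 and 0.949 reads for each ESRP1 read in F133V against 2.25 and 2.14 in wild-type libraries, a 2.23-fold difference. SNAI2 had 0.258 and 0.283 reads for each ESRP1 read in F133V against 0.549 and 0.556 in wild-type libraries, a 2.04-fold difference with GC contents of 41.4% and 42.8%. The balance of ZEB1 and SNAI2 to ESRP1 was thus lower in both F133V libraries than in either wild-type library. ESRP1 lay above 89.6% of genes in its GC bin before adjustment, which enlarges both differences. For each GRHL1 read, at 42.3% GC, ZEB1 had 1.34 and 1.04 reads in F133V against 2.24 and 1.91 in wild-type libraries. That is a smaller, 1.75-fold difference. ESRP2 and SNAI1, at 59.6% and 58.2% GC, went the other way, with the epithelial factor lower against the EMT driver. ESRP2 had 4.88 and 5.08 reads for each SNAI1 read in F133V against 6.94 and 8.97 in wild-type libraries, a 1.6-fold difference. These pairs were chosen after the values were seen. An exact permutation test of 2 against 2 libraries cannot give a p below 0.333, so none is given.

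TWIST1, on chromosome 7, had 0 reads in all 4 libraries, which allows up to 3 reads or 0.0764 to 0.0850 CPM in each. Its paralog TWIST2 was present, at 16.3 and 18.7 CPM in F133V and 13.7 and 15.4 CPM in wild-type libraries. TWIST2 rose before adjustment (log2 fold change 0.27 ± 0.094, edgeR BH-adjusted p = 0.0197) but not after it (-0.0020, edgeR BH-adjusted p = 0.982). The unadjusted call for TWIST2 was lost on leaving out F133V replicate 2 or either wild-type replicate (edgeR BH-adjusted p = 0.0584, 0.357 and 0.0555), and with DESeq2 (adjusted p = 0.0972). The SNAI paralog SNAI3 was scarce, at 0.736 and 1.25 CPM in F133V and 0.408 and 0.561 CPM in wild-type libraries. SNAI3 rose before adjustment (1.03 ± 0.315, edgeR BH-adjusted p = 0.00897) and missed after it (0.68, edgeR BH-adjusted p = 0.0591). Its unadjusted call was lost without F133V replicate 2 (0.61, edgeR BH-adjusted p = 0.188) or wild-type replicate 1 (0.81, edgeR BH-adjusted p = 0.0915), and with DESeq2 (adjusted p = 0.0980).

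**Figure D2:**
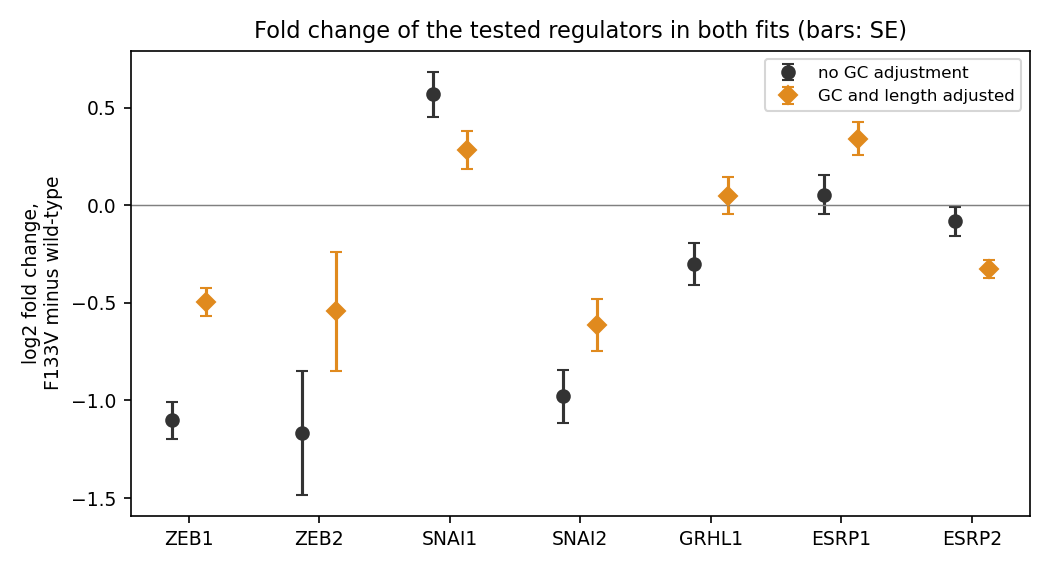
Log2 fold change, F133V minus wild-type, of the 7 tested regulators without (circles) and with (diamonds) adjustment for GC content and length, with bars of 1 SE. ZEB1, ZEB2 and SNAI2 lie below 0 and SNAI1 above 0 in both fits, GRHL1 moves from -0.30 to 0.048, and ESRP1 and ESRP2 move away from 0 after adjustment.

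The GRHL genes encode factors that open chromatin at epithelial enhancers. GRHL1 (ENSG00000134317.18, chromosome 2, 9951693 to 10002277 on the plus strand) had 296 and 308 F133V reads against 370 and 403 wild-type reads, or 8.06 and 8.73 against 9.43 and 11.3 CPM. The genotypes did not overlap, but the gap between them was smaller than the gap between the wild-type replicates. GRHL1 fell before adjustment with a log2 fold change of -0.30 ± 0.108 (SE, edgeR BH-adjusted p = 0.0238). The GC-adjusted value was 0.048 ± 0.096, which did not pass (edgeR BH-adjusted p = 0.704). Genes in the same bin of GC content as GRHL1 had a median difference of -0.35, and 56.1% of them lay below it. The unadjusted call was also lost without wild-type replicate 2, at -0.17 (edgeR BH-adjusted p = 0.414), and with DESeq2 (adjusted p = 0.0874) or upper-quartile scaling (edgeR BH-adjusted p = 0.135).

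GRHL2, on chromosome 8, had 6 reads in each F133V library and 4 and 2 in the wild-type libraries. Over the 12 reads against 6, the depth-scaled ratio was 2.08, with a 95% exact binomial interval of 0.723 to 6.76 that covers counting error only. A difference in GRHL2 was not detectable at this depth. GRHL3 was low as well, at 0.763 and 0.793 CPM in F133V and 0.662 and 0.617 CPM in wild-type libraries, a log2 fold change of 0.28 ± 0.274 (edgeR BH-adjusted p = 0.411). GRHL1 was thus the most abundant GRHL gene in every library.

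OVOL1, on chromosome 11, encodes a zinc-finger repressor of ZEB1. It had 5 and 4 F133V reads against 1 and 0 wild-type reads, a ratio of 9.37 with a 95% exact binomial interval of 1.30 to 411, for counting error only. Its paralog OVOL2, also a repressor of ZEB1, was tested and rose. OVOL2 had 76 and 66 F133V reads against 33 and 25 wild-type reads, or 2.07 and 1.87 against 0.841 and 0.701 CPM, with no overlap. The log2 fold change of OVOL2 was 1.35 ± 0.219 (edgeR BH-adjusted p = 2.80e-05), and 1.07 ± 0.227 when GC-adjusted (edgeR BH-adjusted p = 1.34e-04). OVOL3 had 1 read in all.

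ESRP1 and ESRP2 encode RNA-binding proteins of epithelial splicing. ESRP1 (ENSG00000104413.18, chromosome 8, 94641074 to 94707466 on the plus strand) had 391 and 336 F133V reads against 368 and 360 wild-type reads, or 10.7 and 9.52 against 9.37 and 10.1 CPM. The genotypes overlapped, and the log2 fold change of 0.054 ± 0.101 did not pass (edgeR BH-adjusted p = 0.674). ESRP2 (ENSG00000103067.14, chromosome 16, 68229111 to 68238102 on the minus strand) was the most abundant of the 10, with 1629 and 1747 F133V reads against 1909 and 1811 wild-type reads. Its levels of 44.4 and 49.5 against 48.6 and 50.8 CPM overlapped too, and the log2 fold change of -0.082 ± 0.074 did not pass (edgeR BH-adjusted p = 0.366). ESRP2 overlaps NFATC3 on the other strand, so reads in the shared stretch cannot be assigned.

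GC adjustment moved the ESRP paralogs apart. ESRP1, with 42.8% GC, was called higher at 0.34 ± 0.086 (edgeR BH-adjusted p = 9.77e-04), and ESRP2, with 59.6% GC, was called lower at -0.33 ± 0.046 (edgeR BH-adjusted p = 1.51e-07). Genes in the bin of ESRP1 had a median unadjusted difference of -0.35 and 89.6% of them lay below it. Genes in the bin of ESRP2 had a median of 0.23 and 6.63% of them lay below it. Neither call has a counterpart in separate levels, and the read ratio of ESRP2 to ESRP1 was 4.17 and 5.20 in F133V against 5.19 and 5.03 in wild-type libraries. Without F133V replicate 2, the unadjusted log2 fold change of ESRP2 was -0.16. An adjustment on GC content also removes any real genotype difference that follows GC content.

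**Figure D3:**
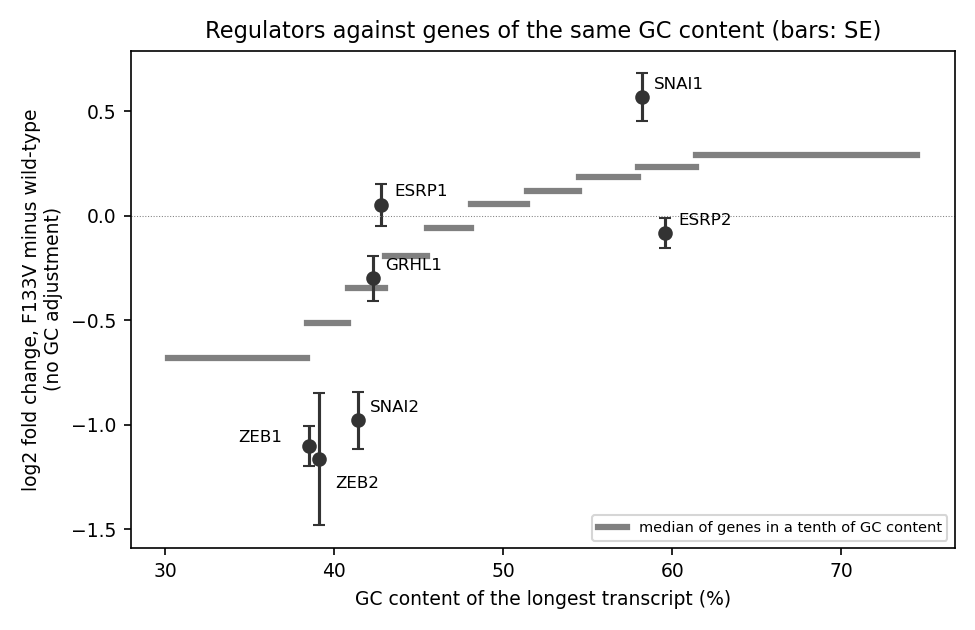
Unadjusted log2 fold change of the 7 tested regulators (points, bars of 1 SE) against the GC content of the longest transcript. Grey lines are the median difference of all genes with a mean above 2 on the log2 CPM scale in each of 10 bins. ZEB1, ZEB2, SNAI2 and ESRP2 lie below the line of their bin, SNAI1 and ESRP1 above it, and GRHL1 close to it.

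Levels can be compared between genes only per length, here as CPM per kilobase of the longest transcript. In wild-type cells ESRP2 was highest at 13.1, followed by SNAI1 at 3.76, ZEB1 at 3.40, ESRP1 at 2.56, GRHL1 at 1.92, SNAI2 at 1.90 and ZEB2 at 0.114. SNAI1 and ZEB1 overlapped between wild-type replicates, as did GRHL1 and SNAI2. In F133V cells the order was ESRP2 at 12.4, SNAI1 at 5.59, ESRP1 at 2.65, ZEB1 at 1.58, GRHL1 at 1.56, SNAI2 at 0.963 and ZEB2 at 0.0503, with ZEB1 and GRHL1 overlapping. ZEB1 thus stood above ESRP1 in wild-type cells and below it in F133V cells. With the mean transcript length in place of the longest, ZEB1 stood second in wild-type cells at 8.89 CPM per kilobase and SNAI1 lower at 3.76. That length also put ZEB1 at 4.14 in F133V cells, beside ESRP1 at 4.22.

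The miR-200 family stands opposite the ZEB factors, and the mature sequences are shown because the family falls into groups by the seed (bases 2 to 8, in capitals) that pairs with targets. They are RefSeq sequences on GRCh38.p14.
hsa-miR-200b-3p: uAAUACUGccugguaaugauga
hsa-miR-200c-3p: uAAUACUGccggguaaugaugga
hsa-miR-429: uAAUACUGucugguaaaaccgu
hsa-miR-200a-3p: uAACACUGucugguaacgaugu
hsa-miR-141-3p: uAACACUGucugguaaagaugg
The first 3 share the seed AAUACUG and the other 2 share AACACUG. Mature microRNAs were not measured here. The host gene of miR-200c and miR-141, MIR200CHG, had 71 and 48 F133V reads against 44 and 36 wild-type reads, or 1.93 and 1.36 against 1.12 and 1.01 CPM. MIR200CHG rose before adjustment (log2 fold change 0.63 ± 0.226, edgeR BH-adjusted p = 0.0234) and not after it (0.24, edgeR BH-adjusted p = 0.398). The unadjusted call for MIR200CHG was lost without F133V replicate 1 (0.32, edgeR BH-adjusted p = 0.332), without either wild-type replicate (edgeR BH-adjusted p = 0.05002 and 0.116) and with DESeq2 (adjusted p = 0.178). The row of MIR429 held 5 and 2 reads in F133V and 2 and 4 reads in wild-type libraries, and that of MIR200A held 1 and 0 against 2 and 4. MIR200B, MIR200C, MIR141 and MIR205HG, the host of miR-205, held none.

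Of 18 corepressors and modifiers that work with ZEB and SNAI proteins, 4 rose, 10 fell and 4 did not pass, beside 27.2% higher and 27.6% lower over all genes, with a median log2 fold change of -0.21 (GC-adjusted 3 higher, 11 lower, median -0.15). The Polycomb subunit SUZ12 fell by 1.03 ± 0.070 on the log2 scale (GC-adjusted -0.43) and the acetyltransferase KAT2B by 0.73 ± 0.091 (GC-adjusted -0.53). The deacetylase SIRT1 fell by 0.61 ± 0.077 (GC-adjusted -0.16, a call lost on leaving out wild-type replicate 2 with edgeR BH-adjusted p = 0.056). HDAC2 fell by 0.52 ± 0.068 before adjustment and rose by 0.15 after it (edgeR BH-adjusted p = 1.87e-06 and 4.85e-04). Leaving out either wild-type replicate left fewer of the 18 higher, and leaving out replicate 2 left fewer lower, as over all genes. Of 17 tested genes of SNAI and TWIST protein turnover, 2 rose, 7 fell and 8 did not pass before adjustment, and 4 rose and 4 fell after it. The 9 and 8 called are close to the 54.8% and 52.2% called over all genes. Fewer of the 17 were higher before adjustment when either wild-type replicate was left out, as over all genes. GSK3B, the kinase that marks Snail for degradation, fell before adjustment (-0.42 ± 0.066) and not after it (-0.0070, edgeR BH-adjusted p = 0.899). FBXO45, a ubiquitin ligase subunit, fell in both fits (-0.44 ± 0.062, GC-adjusted -0.11), but the GC-adjusted call was lost on leaving out either wild-type library (edgeR BH-adjusted p = 0.115 and 0.141). MDM2 (-0.62 ± 0.074, GC-adjusted -0.17) also fell in both, and the COP9 subunit COPS2 only before adjustment (-0.86 ± 0.078, GC-adjusted -0.082, edgeR BH-adjusted p = 0.0971).

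Of 23 other transcription factors of EMT and epithelial identity tested, 11 rose, 2 fell and 10 did not pass. The shares over all genes were 27.2% higher and 27.6% lower. The 23 had a median log2 fold change of 0.27 (GC-adjusted 10 higher, 5 lower, beside 27.6% and 24.6% over all genes, median 0.15). The 11 became 7 with DESeq2, where the genes called higher over all genes went from 4763 to 3189. Fewer of the 23 were also called higher without wild-type replicate 1, as over all genes. More were called lower without F133V replicate 1, again as over all genes. The epithelial factor ELF3 stood at 80.0 and 88.2 CPM in F133V and 44.3 and 44.8 CPM in wild-type libraries, a rise of 0.92 ± 0.071 (GC-adjusted 0.73). ID3, an inhibitor of basic helix-loop-helix factors, rose by 0.59 ± 0.060 (GC-adjusted 0.32). KLF5, a factor of basal epithelium, fell from 59.6 and 59.3 to 36.6 and 36.5 CPM, by 0.70 ± 0.070 on the log2 scale (GC-adjusted -0.67).

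Of 34 tested genes known to be bound or repressed by ZEB and SNAI factors, 22 rose, 6 fell and 6 did not pass. Over all genes 27.2% were higher and 27.6% lower. The 34 had a median log2 fold change of 0.43 (GC-adjusted 24 higher, 4 lower, beside 27.6% and 24.6% over all genes, median 0.23). Leaving out wild-type replicate 2 left fewer of the 34 lower, as over all genes. CDH1 stood at 121 and 118 CPM in F133V and 83.8 and 90.9 CPM in wild-type libraries, and rose by 0.46 ± 0.065 (SE, edgeR BH-adjusted p = 5.78e-06, GC-adjusted 0.45). EPCAM, an epithelial adhesion molecule, rose from 81.1 and 81.6 to 104.6 and 95.6 CPM, by 0.30 ± 0.066 (GC-adjusted 0.28), but its unadjusted call was lost on leaving out either wild-type replicate (edgeR BH-adjusted p = 0.0639 and 0.0587). CDH3, the gene of P-cadherin, rose by 1.19 ± 0.055 (GC-adjusted 1.04), and the mucin MUC1 by 1.29 ± 0.060 (GC-adjusted 0.83). The tight junction scaffold TJP3 rose by 1.49 ± 0.095 (GC-adjusted 1.22) and the protease ST14 by 1.01 ± 0.078 (GC-adjusted 0.74). The desmosome gene DSP, named after its values were seen, fell by 0.45 ± 0.062 (GC-adjusted -0.35).

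Of 21 tested mesenchymal genes, 12 rose, 5 fell and 4 did not pass, beside 27.2% higher and 27.6% lower over all genes. The 21 had a median log2 fold change of 0.27 (GC-adjusted 10 higher, 5 lower, beside 27.6% and 24.6% over all genes, median 0.16). The 12 became 7 with DESeq2, where the genes called higher over all genes went from 4763 to 3189. Fewer of the 21 were also called higher without wild-type replicate 1, as over all genes. VIM, the gene of vimentin, stood at 1719 and 1829 CPM in F133V and 1593 and 1620 CPM in wild-type libraries, and rose by 0.14 ± 0.053 (edgeR BH-adjusted p = 0.0278, GC-adjusted 0.16). The unadjusted call for VIM was lost on leaving out either wild-type replicate (edgeR BH-adjusted p = 0.315 and 0.234) and with DESeq2 (adjusted p = 0.0933). FN1, the gene of fibronectin, rose by 0.39 ± 0.076 (GC-adjusted 0.81). The smooth muscle actin-binding protein gene TAGLN rose by 1.21 ± 0.074 (GC-adjusted 0.98), the matrix protease MMP14 by 0.94 ± 0.060 (GC-adjusted 0.70) and the collagen COL5A1 by 1.45 ± 0.150 (GC-adjusted 1.29). THBS1, the gene of thrombospondin, fell by 0.71 ± 0.065 on the log2 scale (GC-adjusted -0.54). CDH2, the gene of N-cadherin, had 12 and 2 reads in the F133V libraries and none in the wild-type libraries. Epithelial and mesenchymal lists thus had the same sign of median, both above the 0.022 of all tested genes.

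**Figure D4:**
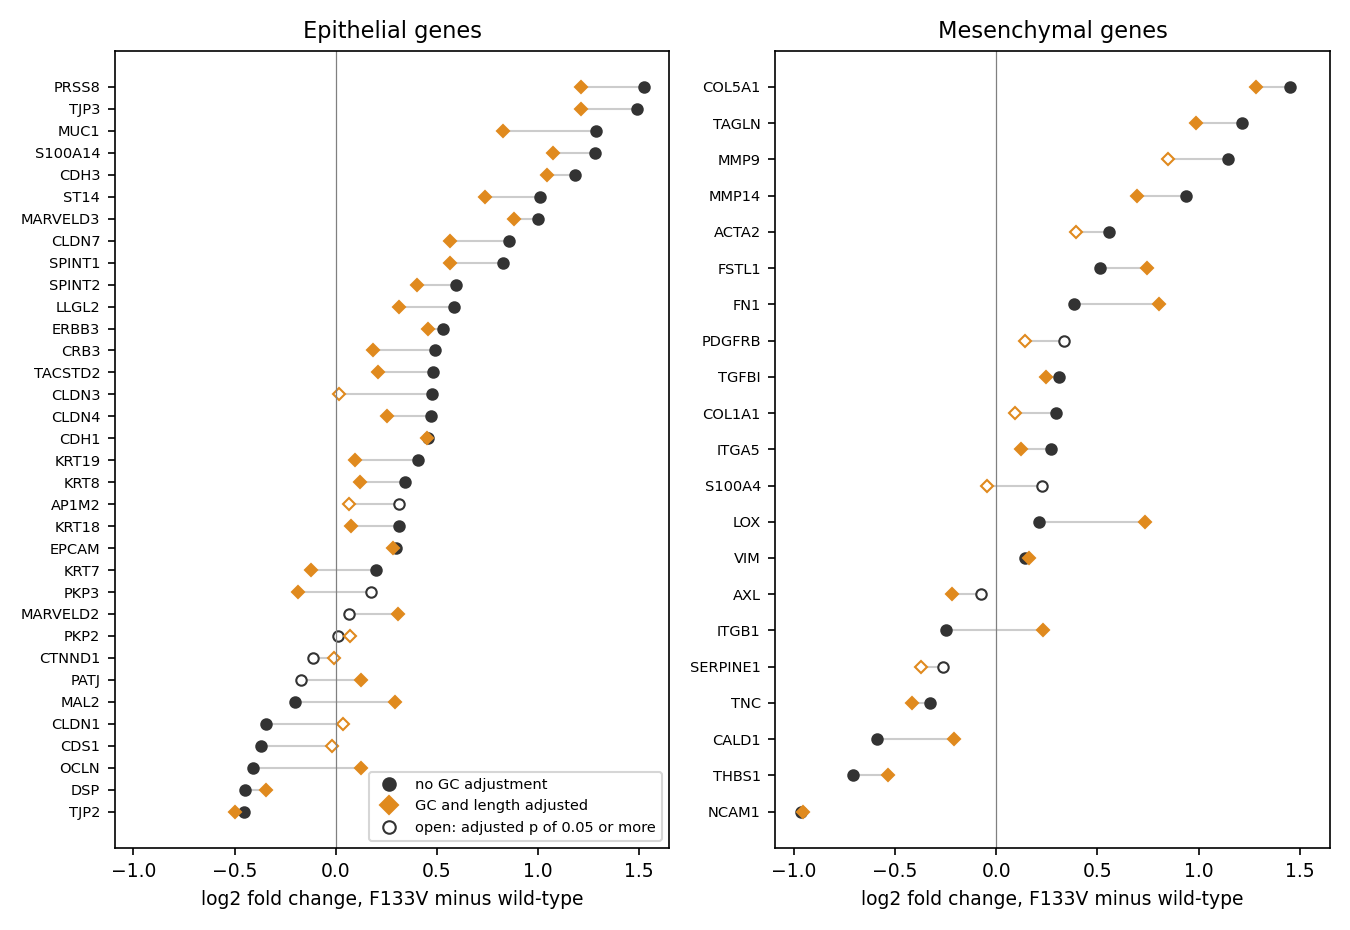
Log2 fold change, F133V minus wild-type, of the 34 tested epithelial and 21 tested mesenchymal genes, without (circles) and with (diamonds) GC and length adjustment. Filled symbols have a BH-adjusted p under 0.05. Most points of both lists lie above 0, and OCLN and ITGB1 are among genes that cross 0 between the fits.

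The promoters of MUC1 and ZEB1 are shown because MUC1 is a higher epithelial gene with E-boxes of the ZEB and SNAI proteins, and ZEB1 encodes such a protein. The motif searched was CACCTG or its reverse complement CAGGTG, so both strands are covered, in the 250 bases before the outermost start that RefSeq gives on GRCh38.p14. Matches are in capitals, and the last base before MUC1 is left off because it lies in an exon.
MUC1, chr1:155192917-155193165, minus strand: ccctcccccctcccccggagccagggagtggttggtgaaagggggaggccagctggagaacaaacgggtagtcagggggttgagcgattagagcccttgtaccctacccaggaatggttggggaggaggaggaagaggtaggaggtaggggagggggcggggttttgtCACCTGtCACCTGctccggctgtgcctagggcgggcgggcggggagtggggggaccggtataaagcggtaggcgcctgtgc
ZEB1, chr10:31318167-31318416, plus strand: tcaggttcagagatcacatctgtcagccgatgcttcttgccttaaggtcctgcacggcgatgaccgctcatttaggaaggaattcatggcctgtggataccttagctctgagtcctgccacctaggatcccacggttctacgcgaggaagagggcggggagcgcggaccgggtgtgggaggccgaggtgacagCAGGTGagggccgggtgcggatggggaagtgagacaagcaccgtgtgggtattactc
MUC1 holds 2 matches, separated by 1 base. ZEB1 holds 1 at its outermost start, where the window lies within the span of ZEB1-AS1 on the other strand. The motif is present at 2 of the 7 ZEB1 starts in the table. The only starts listed for ZEB2 and GRHL1 have none. All 250 bases of the ZEB2 window lie in a protein-coding exon, so that window does not describe sequence upstream of the gene.

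Of the 35 epithelial genes, 17 were matched by symbol to the promoter table, and 9 of the 17 held the motif at the outermost start, beside 17.5% of 27305 genes. At any start 12 of the 17 held it, beside 20.6%. Many of the windows at the outermost start overlap protein-coding exons, over all 250 bases for OCLN, which held the motif, and TJP3, which did not. Presence or absence of the motif there is not that of sequence upstream of all exons. The list was made of genes known for this regulation, so these shares describe its choice. Over all tested genes 27.2% were higher and 27.6% lower (GC-adjusted 27.6% and 24.6%). Of 8 tested genes without the motif at the outermost start 6 rose and 1 fell (GC-adjusted 6 and 0). Of 8 with it 3 rose and 3 fell (GC-adjusted 5 and 1). The 3 that fell before adjustment were DSP, the tight junction gene OCLN and CDS1, a lipid synthesis gene, and DSP was also the 1 that fell after it. A match is a description of the sequence, not a site.

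Of 16 tested splicing regulators of EMT exons other than the ESRP genes, none rose, 12 fell and 4 did not pass. Among all genes 27.2% were higher and 27.6% lower. The 16 had a median log2 fold change of -0.48 (GC-adjusted 2 higher, 10 lower, beside 27.6% and 24.6% over all genes, median -0.14). SRSF1 stood at 41.9 and 41.9 CPM in F133V and 91.0 and 99.6 CPM in wild-type libraries, a fall of 1.18 ± 0.070 on the log2 scale (GC-adjusted -0.79). HNRNPM, a splicing repressor that acts against ESRP proteins on shared exons, fell by 0.74 ± 0.059 (GC-adjusted -0.94). MBNL1 fell by 1.04 ± 0.064 (GC-adjusted -0.52), and HNRNPH1 by 0.77 ± 0.058 (GC-adjusted -0.091). The GC-adjusted call for HNRNPH1 was lost without F133V replicate 1 (-0.072, edgeR BH-adjusted p = 0.0616) or wild-type replicate 1 (-0.053, edgeR BH-adjusted p = 0.438). Without F133V replicate 1, 1 of the 16 was higher and 15 were lower before adjustment, and 0 higher and 8 lower after it. Gene counts do not show which splice forms the cells made.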

How the data were processed

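RNA-seq libraries of DU145 cells, 2 SPOP-F133V and 2 wild-type, were assigned to genotypes from the characteristics field. Raw counts of reads per gene, as deposited, were made with TopHat2 2.0.10 and HTSeq 0.6.0 on hg38, per the submitters' processing notes. Annotation release, strand setting and RNA selection: not given in the sources used here. Reads over no gene (6.12% to 6.53%), over several genes (3.50% to 3.73%) or with several alignments (13.6% to 16.6%) stayed out of library sizes and tests.

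Symbols came from a name table (60400 of 60614 IDs), and lengths, GC content and positions from GENCODE release 29 on GRCh38 (58324 IDs), which need not be the release used for counting. Analysis used edgeR 4.0.16 under R 4.3.3. Genes passing filterByExpr (minimum count 10) were scaled by TMM and compared by the two-sided quasi-likelihood F-test whose p-values were adjusted by Benjamini-Hochberg (BH) across every tested gene, threshold 0.05. The SE is the absolute log2 fold change over the square root of F. The GC-adjusted fit adds as offset a smooth of each library's deviation on GC content and on log2 length, fitted with mgcv 1.9.3 (basis dimension 8, genes above 2 on the log2 CPM scale with prior count 2, centred on the median). Its dispersion gave a biological coefficient of variation of 2.46%, against 4.64% without it. The code of both fits was first run on simulated counts with known changes. DESeq2 1.42.0 was an alternative.

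Members and gene lists were chosen with earlier results of these data known, and 1 turnover gene matched no ID. Named genes are the members, their paralogs, SPOP, antisense and host genes, marker and EMT readout genes, and up to 4 called genes of lowest adjusted p per list. DSP, OCLN, CDS1 and ITGB1 were named after their values were seen. Some genes that this rule names are not reported here. Replicate pairs differed by more than sampling noise (chi-square over degrees of freedom 8.38 for F133V, 1.71 for wild-type).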

Additional observations from a re-analysis of the deposited data

How the results depend on the processing

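With 2 libraries a genotype, the fit has 2 residual degrees of freedom, and where a library was left out the lone sample was assumed to vary like the other genotype. Depth limited GRHL2 and OVOL1, which could not be tested. Of 112 values of the 7 tested members under 16 alternatives, 74 kept their direction and side of the threshold. ZEB1 (-1.27 to -0.46) and SNAI2 (-1.04 to -0.55) passed in all 16, SNAI1 (0.15 to 0.73) in 14, ZEB2 (-1.97 to -0.16) in 8 and GRHL1 in 6. DESeq2 called 3 members, 2 of them lower, beside 41.5% of all tested genes called. Members called higher numbered 2 with the GC and length offset, with its replicate block and with its mean-centred form, and 1 or 2 when a library was also left out. Same-numbered replicates did not deviate together (correlation -0.027), and the replicate block called 4619 genes higher and 4746 lower, 5 members among them, and changed no member's call in either fit. Leaving out a library, the unadjusted fit called 6337 to 10856 genes, 2786 to 5225 of them higher. Called list genes fell in number without either wild-type replicate, as did the called genes among all tested genes. Upper-quartile scaling moved the median of all genes from 0.022 to 0.13 and the calls to 6462 higher and 3831 lower.

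Signs turned as follows, the causes not tested. ESRP2 was 0.029 with upper-quartile scaling. GRHL1 was 0.048 GC-adjusted, 0.050 with the block added and -0.073 to 0.18 with libraries left out. HDAC2 was 0.15 GC-adjusted, 0.15 with the block, 0.088 mean-centred and 0.11 to 0.16 with libraries left out (0.14 without F133V replicate 2). TWIST2 was -0.0020, -0.0050 and -0.049 in the same fits and -0.099 to 0.092 with libraries left out (-0.052 without F133V replicate 2). SNAI3-AS1 was -0.030 mean-centred and -0.051 to 0.10 with libraries left out (-0.0040 without F133V replicate 2). Leaving libraries out gave ESRP1 -0.060 to 0.13 unadjusted, and GC-adjusted MIR200CHG -0.13 to 0.57 and GSK3B -0.046 to 0.013.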

Other observations

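In a search made after the data were seen, genes with at least 20 reads in 1 library and at most 3 in each of the others were counted. F133V replicate 1 had 4 such genes and the other 3 libraries had 0. HOXB13, a prostate lineage homeobox gene, had 60 reads there, 2 in F133V replicate 2 and none in the wild-type libraries. CDH11, a mesenchymal cadherin, had 20, 2, 0 and 0 reads in the order F133V replicates 1 and 2 and wild-type replicates 1 and 2. LINC00261 had 23, 0, 0 and 0 reads, and INHBB, an inhibin subunit gene, 31, 1, 2 and 3. CDH2, at 12 reads in F133V replicate 1 and 2 in replicate 2, was uneven in the same direction. No cause was tested. Without F133V replicate 1, the unadjusted log2 fold changes were -1.27 for ZEB1, -1.03 for SNAI2 and 0.58 for SNAI1. The GC-adjusted values without that library were -0.58, -0.60 and 0.25. The lone F133V library was then assumed to vary like the wild-type pair, so no call is given.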
